A study of Homo sapiens with 8 samples.

Results

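DHRS3 and 8 further genes of retinoic acid handling were followed through MP38 cells, a BAP1-mutant line grown from uveal melanoma (UM), after treatment with epigenetic inhibitors. The 9 genes are the retinaldehyde reductase DHRS3, the retinoic acid receptors RARA, RARB and RARG, their partner receptor RXRA, the binding proteins CRABP1 and CRABP2, the retinol transporter STRA6 and the retinoic acid hydroxylase CYP26B1. They were taken by symbol from a count table of 35238 gene symbols, and the set was chosen by the measured fall of DHRS3 with quisinostat, one of the largest in the table. For this reason the difference between quisinostat and control is given for these genes as a description, without a test. The other comparisons are tested, except that DHRS3 is not tested wherever quisinostat libraries enter, nor is STRA6, which passed the low-count filter only through them. Tests of DHRS3 against the control share the control libraries used in choosing it, so their p-values are not free of the choice. All cells were treated for 24 h, either with 0.1% DMSO alone as the control, with 40 nM romidepsin, with 40 nM quisinostat or with 1200 nM mivebresib. By the paper's methods the drug wells also held 0.1% DMSO. Romidepsin and quisinostat are inhibitors of histone deacetylases (HDAC). Mivebresib is an inhibitor of BET proteins, whose bromodomains read acetylated histones. Bulk RNA was sequenced from 2 separate wells for each of the 4 groups, all of this single line, so the spread between replicates (SD, n = 2) is the spread between wells. The drugs were given at 1 dose and 1 time each, and no retinoid was among the treatments.

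Retinol enters cells partly through STRA6, is oxidised to retinaldehyde by retinol dehydrogenases and then to retinoic acid by aldehyde dehydrogenases. DHRS3 works against the first of these steps by reducing retinaldehyde back to retinol, and CYP26 enzymes clear retinoic acid once it is made. Retinoic acid carried by CRABP proteins binds heterodimers of RAR and RXR, which sit on DNA at direct repeats of a short half-site. DHRS3, RARB, CYP26A1 and STRA6 are textbook targets that rise when retinoic acid activates these receptors, so their transcripts are commonly read as signs of retinoid signalling.

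The best known binding site of this kind, a direct repeat spaced by 5 bases, was looked for in windows running from 250 bases before to 50 bases after each start site (RefSeq, GRCh38.p14). The half-site searched was AGGTCA, with AGTTCA as a first variant, GGTTCA as another and GGGTCA as the last, in every combination and on both strands. A repeat spaced by 5 bases was found in 31 of 35116 windows (0.0883%), while a single half-site was in 38.6% of them. All 9 genes were matched, with 21 windows between them. Of these, 10 held a single half-site, and 1, at RARB, held the repeat, 53 to 37 bases before the start site. CYP26A1, the other CYP26 gene with enough counts to be tested, held a repeat on the opposite strand, 90 to 74 bases before its start site. None of the 3 windows of DHRS3 held the repeat, which says only that these letters are not in these windows. Repeats spaced by 2 bases (0.0399% of all windows) or by 1 base (0.131%) were in no window of the 9 genes. The 250 bases before the start site are shown for DHRS3, whose fall chose the genes, at the most upstream of its 3 RefSeq start sites (12618210, which is 479 bases upstream of the GENCODE 29 gene used below), and for the 2 genes with a repeat, whose 17 matching bases are in capitals. All are written in the direction of the gene, with DHRS3 on the minus strand (chr1:12618211-12618460) and RARB (chr3:25428013-25428262) and CYP26A1 (chr10:93073643-93073892) on the plus strand.
DHRS3: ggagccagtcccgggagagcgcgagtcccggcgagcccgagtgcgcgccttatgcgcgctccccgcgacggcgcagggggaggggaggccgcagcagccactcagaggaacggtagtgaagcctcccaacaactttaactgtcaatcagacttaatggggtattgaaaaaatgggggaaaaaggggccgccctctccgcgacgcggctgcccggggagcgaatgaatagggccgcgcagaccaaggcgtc
RARB: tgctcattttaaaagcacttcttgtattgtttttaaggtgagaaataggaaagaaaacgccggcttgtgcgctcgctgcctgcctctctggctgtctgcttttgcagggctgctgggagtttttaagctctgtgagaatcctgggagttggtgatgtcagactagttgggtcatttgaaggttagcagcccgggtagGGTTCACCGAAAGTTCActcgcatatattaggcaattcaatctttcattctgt
CYP26A1: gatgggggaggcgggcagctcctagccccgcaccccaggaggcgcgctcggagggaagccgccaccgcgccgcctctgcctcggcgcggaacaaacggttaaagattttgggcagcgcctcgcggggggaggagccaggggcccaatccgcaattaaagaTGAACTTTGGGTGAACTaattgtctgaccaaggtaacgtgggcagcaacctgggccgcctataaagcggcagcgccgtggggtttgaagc
In RARB the capitals open with the half-site GGTTCA and close with its variant AGTTCA. In CYP26A1 they show the repeat as it appears from the gene's own strand, so that the half-sites are read on the other strand. No binding was measured in these cells, and a match is a description of the letters only.

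Total counts ran from 28483235 to 29359024 per library, so depth hardly differed between groups. The control libraries differed most from each other, with a chi-square statistic per degree of freedom of 58.1 against 9.52 to 9.79 in the drug groups. Levels are given as CPM, the count relative to the library total, scaled with TMM factors that set most genes near no change. The median log2 FC of the 15085 genes tested was -0.01 with romidepsin, -0.00 with quisinostat and 0.01 with mivebresib. Without these factors it was 0.06, 0.20 and 0.03. Of 8 melanocytic markers 7 reached at least 10 counts in some library, among them TYRP1, PMEL, MLANA, MITF and SOX10, and DCT had at most 5 counts in any library. The summed melanocytic level was 4193 to 5451 CPM in the control, 4737 to 5025 with romidepsin, 3561 to 4106 with quisinostat and 3697 to 3775 with mivebresib. Most of this sum was TYRP1, at 3549 CPM in the control, while other markers fell further with quisinostat and mivebresib, at log2 FC of -1.39 and -1.47 for MITF, -1.05 and -1.33 for MLANA and -0.92 and -1.93 for SOX10. Of 5 markers of retinal pigment epithelium, a retinoid-handling tissue of the eye, RLBP1 was at 0 in every library and RPE65 had at most 2 counts. The sum of these markers, nearly all BEST1, was 10.4 to 13.0 CPM in the control, 20.1 to 20.9 with romidepsin, 15.0 to 16.0 with quisinostat and 6.40 to 8.23 with mivebresib. Markers of fibroblasts summed to at most 10.9 CPM in any library, of endothelium to 5.82 and of keratinocytes to 0.221, and the immune sum of 61.2 to 83.2 was nearly all CD68, with CD3E at 0. The part of these shifts in the retinoid genes was not tested.

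DHRS3 (ENSG00000162496, chromosome 1 from 12567910 to 12617731, minus strand, GRCh38) was highest in the control and stepped down from romidepsin to quisinostat to mivebresib. Its control libraries stood at 33.7 and 39.4 CPM, from 952 and 1078 counts. The romidepsin libraries stood at 14.4 and 16.2 CPM (419 and 472 counts). With quisinostat they stood at 3.51 and 3.66 CPM (111 and 115 counts). With mivebresib they stood at 1.61 and 1.29 CPM (44 and 36 counts). No 2 groups overlapped. Groups without overlap were common in these data, at 63.6% of all genes for romidepsin against control, 74.2% for quisinostat and 69.7% for mivebresib.

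**Figure D1:**
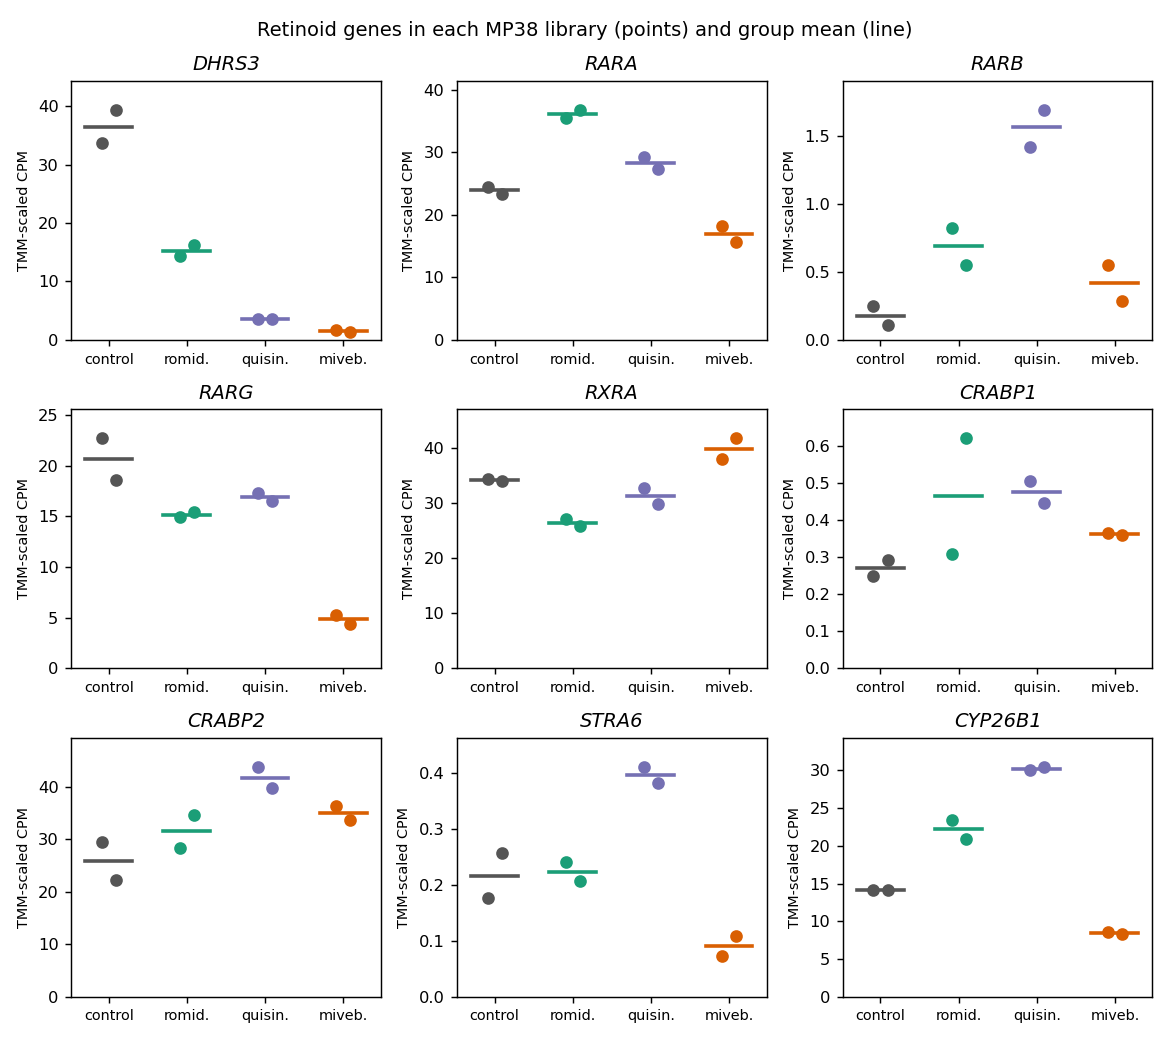
TMM-scaled CPM (linear axis from 0, a separate scale for each gene) of the 9 retinoid genes. Points are single libraries (2 a group), set side by side only so that both can be seen, and lines are group means. The mean of DHRS3 is 36.5 CPM in the control and 15.3, 3.59 and 1.45 in the drug groups, while CYP26B1 goes up with both HDAC inhibitors and down with mivebresib.

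Against the control, DHRS3 fell with romidepsin by 1.25 on the log2 scale (standard error 0.12, edgeR adjusted p = 2.03e-04), from 36.5 ± 4.0 to 15.3 ± 1.32 CPM or 2.38-fold. With mivebresib it fell by 4.65 (standard error 0.15, adjusted p = 9.32e-07), a 25.1-fold fall to 1.45 ± 0.222 CPM. Both tests use the same control libraries as the quisinostat comparison that picked the gene. Their p-values are therefore not free of that choice, under the main fit or any alternative, and the sizes are a description. The level with quisinostat, given without a test, was 3.59 ± 0.105 CPM, 10.2-fold below the control (log2 FC -3.35, standard error 0.13). The comparison of mivebresib with romidepsin uses neither control nor quisinostat libraries apart from the shared estimate of spread, and there DHRS3 was 10.5-fold lower with mivebresib (log2 difference -3.40, standard error 0.16, adjusted p = 3.06e-06). At the same dose and time, the quisinostat libraries were 4.27-fold below the romidepsin libraries (log2 difference -2.09, standard error 0.14). Mivebresib was 2.47-fold below quisinostat (-1.30, standard error 0.18). The tested differences of DHRS3 held their direction and call under each of the 16 alternatives run.

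In the order of all 15085 genes tested, DHRS3 had the 12th largest fall with quisinostat, between CTC-435M10.3 (log2 FC -3.45), with 1 and 0 counts against 7 and 5, and ACTG2 (-3.30), a smooth muscle actin with 5 and 9 counts against 68 and 56. It was 31st with mivebresib, 178th with romidepsin and 195th in mivebresib against romidepsin. Of the 9826 genes at or above its own average log2 CPM of 2.90, none but DHRS3 itself fell as far with quisinostat. With mivebresib 3 genes of this kind, DHRS3 included, fell at least as far, and with romidepsin 40 did. As in any bulk sample, fewer cells that express a gene and less of its RNA per cell cannot be told apart.

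CYP26B1 (chromosome 2, 72129238 to 72148038, minus strand) clears retinoic acid, and it moved in opposite directions with the HDAC and BET inhibitors. Its control libraries stood at 14.1 and 14.2 CPM. They were 23.4 and 20.9 CPM with romidepsin, 30.0 and 30.5 with quisinostat and 8.56 and 8.27 with mivebresib. The 4 groups did not overlap, and replicates differed by less than any 2 groups did. Romidepsin raised CYP26B1 (log2 FC 0.64, standard error 0.09, adjusted p = 0.00137), and it fell with mivebresib (-0.75, standard error 0.10, adjusted p = 3.62e-04). With quisinostat the log2 FC was 1.09. The distance between the BET inhibitor and either HDAC inhibitor was larger than any distance from the control, at -1.40 against romidepsin (adjusted p = 1.24e-05) and -1.85 against quisinostat (adjusted p = 2.14e-06). Quisinostat was above romidepsin by 0.45 (adjusted p = 0.00511), a call lost without quisinostat replicate 2 (0.40, adjusted p = 0.0597) or romidepsin replicate 2 (0.36, adjusted p = 0.0573). DHRS3 and CYP26B1, the enzymes that draw down retinaldehyde and retinoic acid, thus differed in direction with romidepsin and shared it with mivebresib.

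**Figure D2:**
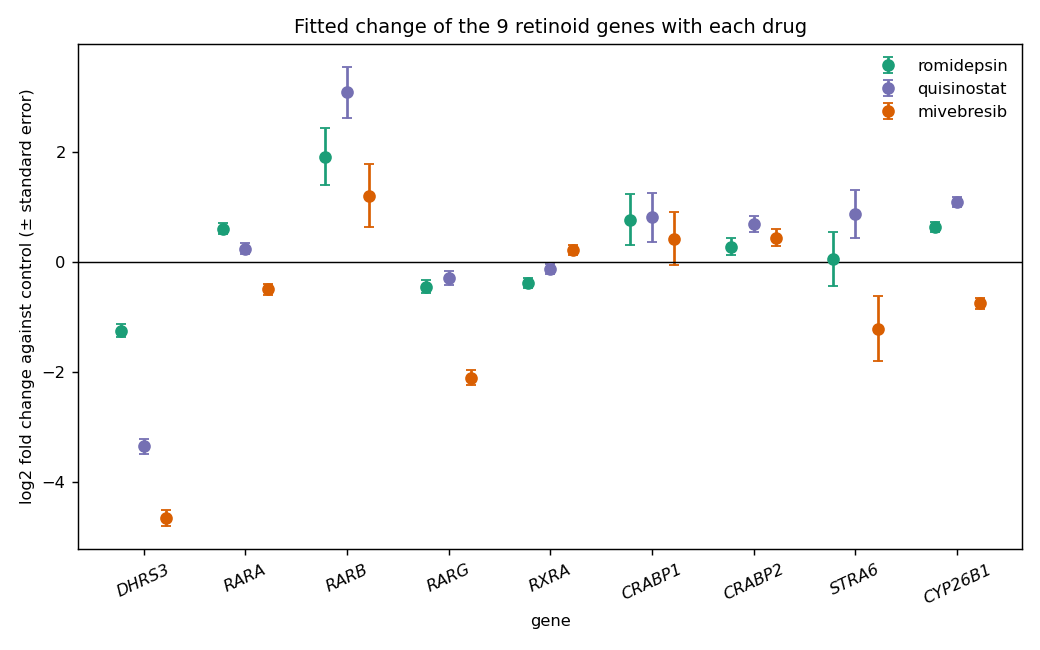
Fitted log2 FC against control (vertical axis, log2 scale) of the 9 retinoid genes (horizontal axis) with romidepsin, quisinostat and mivebresib. Points are estimates from the edgeR model and bars are ± standard error. DHRS3 lies below 0 with every drug, whereas RARA and CYP26B1 lie above 0 with both HDAC inhibitors and below 0 with mivebresib, at -0.50 and -0.75.

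RARA (chromosome 17, 40309192 to 40357643, plus strand) is the most widely expressed of the retinoic acid receptors. It stood at 24.4 and 23.4 CPM in the control, 35.5 and 36.8 with romidepsin, 29.2 and 27.3 with quisinostat, and 18.2 and 15.6 with mivebresib. No groups overlapped, and their order was the same as for CYP26B1 except that romidepsin and not quisinostat was on top. Romidepsin raised RARA (log2 FC 0.60, standard error 0.10, adjusted p = 0.00251), and it fell with mivebresib (-0.50, standard error 0.10, adjusted p = 0.00343). Mivebresib was 1.10 below romidepsin (adjusted p = 4.69e-05) and 0.74 below quisinostat (adjusted p = 2.75e-04). The log2 FC with quisinostat was 0.24, or 0.44 without TMM factors. Quisinostat was below romidepsin by 0.35 (adjusted p = 0.0197), which lost its call without TMM factors (adjusted p = 0.0881) and when any library of either group was left out.

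RARG (chromosome 12, 53210567 to 53232980, minus strand), the receptor best known from skin, had its large change with mivebresib. It stood at 22.7 and 18.6 CPM in the control, 14.9 and 15.4 with romidepsin and 17.3 and 16.5 with quisinostat. With mivebresib it was at 5.23 and 4.42 CPM, far below all other libraries. The fall with mivebresib was 4.28-fold (-2.10 on the log2 scale, standard error 0.13, adjusted p = 1.06e-05), and mivebresib was also below romidepsin (-1.65, adjusted p = 3.21e-05) and quisinostat (-1.81, adjusted p = 1.28e-05). RARG was 0.45 lower with romidepsin than in the control (standard error 0.12, adjusted p = 0.0240), but this call was lost under 7 of the 16 alternatives, among them only the 4 libraries of the comparison (adjusted p = 0.0898), upper-quartile factors (0.0507) and the fit without control replicate 1 (-0.28, adjusted p = 0.108). The log2 FC with quisinostat was -0.29, and the difference between the HDAC inhibitors was 0.16 (standard error 0.12, adjusted p = 0.347).

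RARB (chromosome 3, 25174332 to 25597932, plus strand), itself a classic retinoic acid target and the gene with the repeat shown above, was low in every library. It had 7 and 3 counts in the control, 24 and 16 with romidepsin, 45 and 53 with quisinostat and 15 and 8 with mivebresib. In CPM the means were 0.179 ± 0.0978, 0.687 ± 0.193, 1.56 ± 0.186 and 0.418 ± 0.184, and all 3 drug groups lay above the control. RARB rose with romidepsin (log2 FC 1.91, standard error 0.52, adjusted p = 0.0244), a call lost with only the 4 libraries of the comparison (adjusted p = 0.0534), without control replicate 2 (1.45, adjusted p = 0.0759) or without romidepsin replicate 1 (1.59, adjusted p = 0.147). With quisinostat the log2 FC was 3.08, and from 2.62 to 3.77 depending on which control library was left out. With mivebresib it was 1.20 (standard error 0.57, adjusted p = 0.117). Quisinostat was above romidepsin by 1.17 (adjusted p = 0.0350), which DESeq2 did not call (adjusted p = 0.0935) and which was lost when any of these 4 libraries was left out (adjusted p = 0.0727 to 0.201). Mivebresib was below quisinostat by 1.89 (adjusted p = 0.00351). The gene overlaps TOP2B, on the opposite strand, only at its end, from 25597905 to 25597932. TOP2B had 2671 to 3862 counts and log2 FC of -0.00, -0.17 and -0.34 with romidepsin, quisinostat and mivebresib. Whether the counting used strand is not given in the sources used here, so a share of TOP2B counts in RARB was not tested.

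RXRA (chromosome 9, 134317098 to 134440585, plus strand), the shared partner of the RARs and of many other nuclear receptors, moved little. Its libraries ran at 34.4 and 34.1 CPM in the control, 27.1 and 25.8 with romidepsin, 32.8 and 29.8 with quisinostat and 38.0 and 41.8 with mivebresib. It fell with romidepsin by 0.38 (standard error 0.09, adjusted p = 0.0143), which was no longer called with only the 4 libraries of the comparison (adjusted p = 0.0619) or without either romidepsin library. With mivebresib the log2 FC was 0.22 (standard error 0.09, adjusted p = 0.0705), and with upper-quartile factors it passed the threshold at 0.27 (adjusted p = 0.0394). The difference between mivebresib and romidepsin was clearer, at 0.60 (adjusted p = 7.42e-04). The log2 FC with quisinostat was -0.13 and turned to 0.07 without TMM factors. Mivebresib was above quisinostat by 0.35 (adjusted p = 0.00853), a call lost without TMM factors (0.17, adjusted p = 0.149).

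The retinoic acid carriers differed widely in level. CRABP2 (chromosome 1, 156699606 to 156705816, minus strand), which hands retinoic acid to RARs in the nucleus, stood at 29.5 and 22.2 CPM in the control, 28.3 and 34.7 with romidepsin, 43.8 and 39.7 with quisinostat and 36.3 and 33.7 with mivebresib. The control and romidepsin libraries overlapped, and the quisinostat libraries were highest. The log2 FC was 0.28 with romidepsin (standard error 0.15, adjusted p = 0.180), 0.69 with quisinostat and 0.44 with mivebresib (standard error 0.15, adjusted p = 0.0401). The call with mivebresib was lost without control replicate 2 (0.24, adjusted p = 0.133), without either mivebresib library (adjusted p = 0.174 and 0.0957) or either quisinostat library (0.0573 and 0.0575), without a filter on low counts (0.0523) and with only the 4 libraries of the comparison (0.0635). Without control replicate 1, romidepsin passed the threshold (0.52, adjusted p = 0.0110). An antisense gene, AL590666.4, overlaps CRABP2, and its share in the counts was not tested.

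CRABP1 (chromosome 15, 78340324 to 78348230, plus strand), which holds retinoic acid in the cytoplasm, was near the limit of detection, with 7 and 8 counts in the control, 9 and 18 with romidepsin, 16 and 14 with quisinostat and 10 and 10 with mivebresib. No tested comparison passed the threshold, and the log2 FC was 0.77 with romidepsin (standard error 0.46, adjusted p = 0.232) and 0.42 with mivebresib (standard error 0.48, adjusted p = 0.507). STRA6 (chromosome 15, 74179466 to 74212267, minus strand), the membrane receptor for retinol-binding protein, had 5 and 7 counts in the control, 7 and 6 with romidepsin, 13 and 12 with quisinostat and 2 and 3 with mivebresib. The summed mivebresib counts were 0.420 times those of the control (exact 95% interval 0.116 to 1.28, counting error only). No tested difference of STRA6 passed, and its comparisons with quisinostat are not tested.

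Levels can be set side by side between genes only per length. Per kilobase of merged exons, the control means were 23.5 CPM for CRABP2, 12.0 for DHRS3, 5.06 for RARA, 4.03 for RARG, 3.09 for RXRA, 2.83 for CYP26B1, 0.272 for CRABP1, 0.0483 for RARB and 0.0281 for STRA6. DHRS3 was thus second among these genes in untreated cells. With mivebresib it was at 0.478 CPM per kilobase, below RARG at 0.941 and CYP26B1 at 1.68, while CRABP2 was at 31.8. With quisinostat DHRS3 was at 1.18 CPM per kilobase and CYP26B1, at 6.03, had passed RARA at 5.98, a pair that lies within the replicate spread.

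All 9 genes passed the filter on low counts. Calls of DHRS3 against the control are counted here, although they share the control libraries that chose it. With romidepsin 3 of the 9 rose (RARA, RARB and CYP26B1) and 3 fell (DHRS3, RARG and RXRA), where 31.0% of all genes tested were called, 15.2% higher and 15.8% lower. With mivebresib 1 rose (CRABP2) and 4 fell (DHRS3, RARA, RARG and CYP26B1), where 46.2% of all genes were called, 22.2% higher and 24.1% lower. A log2 FC beyond 1.5 was reached by RARB with romidepsin, where 3.77% of all genes rose that far, and by DHRS3 and RARG with mivebresib, where 4.36% fell that far. Between mivebresib and romidepsin 1 gene was higher with mivebresib (RXRA) and 4 were lower (DHRS3, RARA, RARG and CYP26B1), where 48.9% of all genes were called, 23.7% higher and 25.2% lower. Between the HDAC inhibitors, where DHRS3 and STRA6 were left out of the tests, 2 of 7 genes were higher with quisinostat (RARB and CYP26B1) and 1 was lower (RARA), beside 35.6% of all genes called (21.0% higher, 14.6% lower). Against quisinostat, mivebresib had 1 of the same 7 genes higher (RXRA) and 4 lower (RARA, RARB, RARG and CYP26B1), beside 57.7% of all genes called (26.2% higher, 31.5% lower). With shares of called genes this high, the counts say little about the retinoid genes as a group, and the sizes carry the description.

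**Figure D3:**
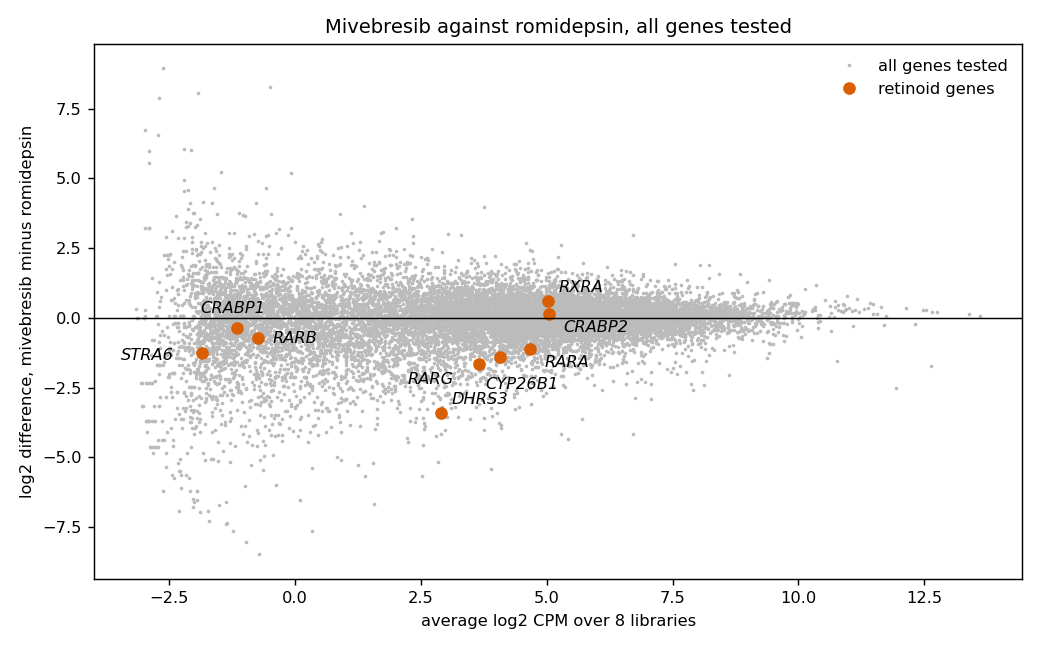
Log2 difference of mivebresib minus romidepsin (vertical axis) against the average log2 CPM over 8 libraries (horizontal axis) for the 15085 genes tested (grey) and the 9 retinoid genes (orange, named). DHRS3 at -3.40 is the lowest of the 9 genes, RARG, CYP26B1 and RARA lie below 0 and RXRA at 0.60 lies above it.

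Around these 9 genes, a list of 67 further retinoid genes was set up by role, of which all were in the count table and 50 were tested. With romidepsin 10 rose and 9 fell, with a median log2 FC of 0.12, where 15.2% of all genes were called higher and 15.8% lower. With quisinostat 18 rose and 12 fell (median 0.09), where 53.2% of all genes were called, 28.0% higher and 25.1% lower. Of the 50 genes, 4 passed the low-count filter only through the quisinostat libraries (RXRG, CYP26A1, PPARG and THRB), so the filter itself favoured a higher level there. The last 3 of them are among the 18. Without TMM factors the split of rises to falls was 25 to 5, where 5625 of all 15085 genes were called higher and 2144 lower. With mivebresib 6 rose and 15 fell, where 22.2% of all genes were called higher and 24.1% lower. The median was -0.16, or -0.11 with genes of at most 3 counts per library in a group set at the bound that these counts allow. The 17 genes with too few counts included the retinol carrier RBP4 and the retinaldehyde dehydrogenase ALDH1A1.

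Of 10 tested genes listed under synthesis, 5 were called lower with mivebresib (ALDH1A3, ALDH1A2, BCO2, ADH5 and RDH14) and none higher, where 24.1% of all genes were lower and 22.2% higher. ALDH1A3, which makes retinoic acid from retinaldehyde, was by far the most abundant retinaldehyde dehydrogenase here, at 6222 and 6148 counts in the control. It had 6262 and 6028 counts with romidepsin, 9384 and 9098 with quisinostat and 1609 and 1633 with mivebresib. It fell 3.78-fold with mivebresib (-1.92 on the log2 scale, standard error 0.08, adjusted p = 1.52e-06), rose with quisinostat (0.40, adjusted p = 0.00212) and had a log2 FC of -0.07 with romidepsin (adjusted p = 0.475). ALDH1A2, at 20 and 15 control counts, rose with romidepsin (1.31, adjusted p = 0.0126) and quisinostat (1.21, adjusted p = 0.00939) and fell with mivebresib (-2.27, adjusted p = 0.00437). BCO2, a carotenoid-cleaving oxygenase, went the same ways, rising from 32 and 29 counts to 147 and 130 with romidepsin (2.11, adjusted p = 2.56e-04) and to 424 and 446 with quisinostat (3.65, adjusted p = 3.39e-06), and standing at 17 and 9 with mivebresib (-1.21, adjusted p = 0.0108). The fall of BCO2 was not called with only the 4 libraries of the comparison (adjusted p = 0.0529) or without mivebresib replicate 2 (-0.81, adjusted p = 0.0780), nor were those of ADH5 and RDH14 with only those libraries (adjusted p = 0.0717 and 0.0912). Of the retinol dehydrogenases, RDH10 was 1.44-fold higher with quisinostat (adjusted p = 0.00259), and RDH5, at 17 and 21 control counts, rose with romidepsin (1.74, adjusted p = 0.00171) and quisinostat (1.12, adjusted p = 0.00724). Others went down: RDH10 and RDH14 were called lower with romidepsin, calls lost with only the 4 libraries of the comparison (adjusted p = 0.102 and 0.134). RDH13 and RDH14 were called lower with quisinostat, but not with library size alone (adjusted p = 0.299 and 0.513).

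**Figure D4:**
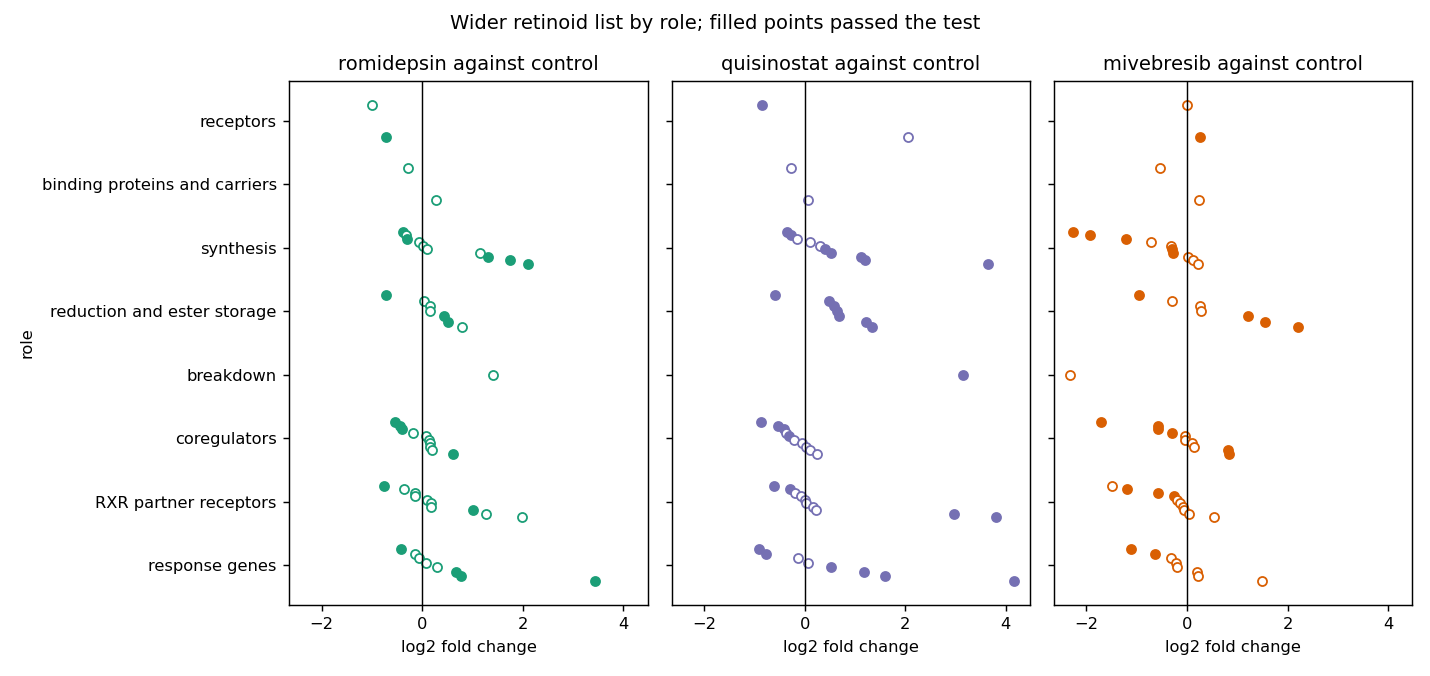
Log2 FC against control (horizontal axis, log2 scale) of the 50 tested genes of the wider retinoid list, by role (rows), with romidepsin, quisinostat and mivebresib. Each point is 1 gene, spread within its row by size, and filled points passed the edgeR test at an adjusted p of 0.05. Synthesis genes lie mostly below 0 with mivebresib, at a median of -0.30. Genes of reduction and ester storage lie mostly above 0 with quisinostat, at a median of 0.65.

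Of 7 tested genes listed under reduction and ester storage, 6 were called higher with quisinostat (PNPLA4, DGAT1, LIPE, DHRS7, RETSAT and LRAT). DHRS4 was called lower, where 28.0% of all genes were higher and 25.1% lower. The call of RETSAT was lost with only the 4 libraries of the comparison (adjusted p = 0.0777), and that of DHRS4 also with library size alone (adjusted p = 0.104) and upper-quartile factors (0.0558). With mivebresib DGAT1, RETSAT and LRAT rose and LIPE fell. DGAT1, an acyltransferase that can esterify retinol, had 1459 and 1522 counts in the control and 4555 and 4188 with mivebresib (1.56 on the log2 scale, standard error 0.09, adjusted p = 6.91e-06). RETSAT, a retinol saturase, went from 1924 and 2655 counts to 5296 and 5292 (1.22, adjusted p = 3.25e-04). LRAT, the main retinol esterifying enzyme of many tissues, was low, at 7 and 4 counts in the control and 23 and 28 with mivebresib (2.20, adjusted p = 0.00356), and its rise with quisinostat was lost with DESeq2 (adjusted p = 0.106) and under 10 other alternatives. PNPLA4, which hydrolyses retinyl esters, rose with quisinostat (1.23, adjusted p = 2.18e-04), while LIPE fell with mivebresib (-0.96, adjusted p = 6.17e-04). With romidepsin LIPE and DHRS7 were called higher and DHRS4 lower, and all 3 calls were lost with only the 4 libraries of the comparison (adjusted p = 0.0602, 0.0924 and 0.0554), that of DHRS7 under 8 alternatives in all.

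CYP26A1, whose upstream repeat is shown above, had 2 and 4 counts in the control, 5 and 12 with romidepsin, 27 and 35 with quisinostat and 1 and 0 with mivebresib. Like STRA6, it passed the low-count filter only through the quisinostat libraries, so its higher level there is a description without a test. Its summed mivebresib counts were 0.168 times those of the control (exact 95% interval 0.00365 to 1.39, counting error only). CYP26A1, RARB and CYP26B1 were each highest in the quisinostat libraries, in which DHRS3 was 10.2-fold below the control.

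Among the response genes, TGM2, a transglutaminase induced by retinoic acid in many cells, rose with both HDAC inhibitors (log2 FC 0.77 with romidepsin, adjusted p = 8.25e-04, and 1.18 with quisinostat, adjusted p = 2.63e-05), from 544 and 591 counts in the control to 1036 and 983 and to 1461 and 1446. With mivebresib it had 523 and 465 counts (-0.19, adjusted p = 0.154). With romidepsin MEIS1 was also called higher and BHLHE40 lower, both lost with only the 4 libraries of the comparison (adjusted p = 0.0792 and 0.0503). With quisinostat MEIS1 (1.59, adjusted p = 1.21e-04) and MEIS2 rose, and BHLHE40 (-0.91, adjusted p = 9.48e-05) and ICAM1 fell. MEIS2, a homeobox gene, fell with mivebresib (-1.12, adjusted p = 1.08e-04), as did ICAM1 (-0.64, adjusted p = 0.0126). None of the 8 tested response genes was called higher with mivebresib, where 22.2% of all genes were higher and 24.1% lower.

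In the remaining roles the changes varied widely in size. RXRB, the RXR of most tissues, fell with both HDAC inhibitors (log2 FC -0.73 and -0.85, adjusted p = 7.13e-04 and 9.63e-05). It was 0.26 higher with mivebresib (adjusted p = 0.0342), a call lost with DESeq2 (adjusted p = 0.0773). That call was also lost with no filter (0.0758), with only the 4 libraries of the comparison (0.0994) and in 7 fits that left out 1 library. RXRG had at most 6 counts in any control library and 11 and 18 with quisinostat. It passed the low-count filter only through quisinostat, so its level there is given without a test. It was called with neither romidepsin nor mivebresib. Of 10 coregulators, the acetyltransferase CREBBP fell with all 3 drugs (-0.54, -0.87 and -0.58, adjusted p = 0.00309, 9.83e-05 and 0.00108). NCOA1 (0.84, adjusted p = 1.96e-04) and HDAC3 (0.81, adjusted p = 3.74e-04) rose with mivebresib, and PRAME, a repressor of RAR signalling, fell from 85 and 118 to 33 and 29 counts (-1.70, adjusted p = 0.00190). PRAME was low already in the control, at a mean of 3.66 CPM, and the paper counts MP38 as a line without PRAME expression. Any effect of this fall on RAR signalling was not tested. NCOA2 also fell with mivebresib. NCOA3 rose with romidepsin (0.62, adjusted p = 0.00340), and NCOA2 and EP300 were called lower with it, calls lost with only the 4 libraries of the comparison (adjusted p = 0.0663 and 0.105) and for EP300 under 10 alternatives in all. EP300 and NCOR1 were called lower with quisinostat, but not with library size alone (adjusted p = 0.0750 and 0.177), and NCOR1 not with upper-quartile factors (0.0814) either. Among 10 receptors that pair with RXR, NR4A1 went up with romidepsin (1.01, adjusted p = 1.24e-04) and NR1H2 fell (-0.77, adjusted p = 0.00254). With quisinostat NR1H2 and THRA were called lower. The call of THRA was lost with library size alone (-0.10, adjusted p = 0.404), upper-quartile factors (0.166) and a mean of at least 1 CPM (0.0576). PPARG, at 7 and 2 counts in the control and 37 and 45 with quisinostat, and THRB, at 1 and 1 and at 23 and 12, passed the low-count filter only through quisinostat and are given without a test. With mivebresib THRA (-1.19, adjusted p = 4.89e-05), NR4A1 (-0.58, adjusted p = 5.50e-04) and PPARA fell, the last of them called under few of the alternatives.

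The genes whose pattern over the 8 libraries was most like that of DHRS3 came from outside the retinoid list. The comparison took in 11797 genes whose log2 CPM averaged 1 or more. The smallest root mean square distance between centred log2 CPM profiles was that of MYLK (0.513), a myosin light chain kinase. It was followed by the immediate early transcription factor EGR3 (0.596), the transporter ABCB5 (0.615), the interferon-induced TRIM22 (0.631) and the transcriptional coregulator CITED1 (0.648). MYLK stood at 308 ± 38.8 CPM in the control, at 208 ± 8.74 with romidepsin, at 72.7 ± 2.84 with quisinostat and at 28.6 ± 2.24 with mivebresib. CITED1 went from 79.0 ± 19.5 to 47.5 ± 4.73, 16.3 ± 1.86 and 10.2 ± 1.17 CPM. ABCB5 stood at 43.1 ± 2.13 CPM with romidepsin against 46.0 ± 0.987 in the control, and was at 13.6 ± 0.459 and 3.02 ± 0.554 with the other drugs. The nearest of the retinoid genes was RARG, at a distance of 1.24 and place 183, and RARA, CYP26B1, RXRA and CRABP2 were further away, at 1.60 to 2.00. Likeness was measured on the same libraries that chose DHRS3, and it is given as a description.

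**Figure D5:**
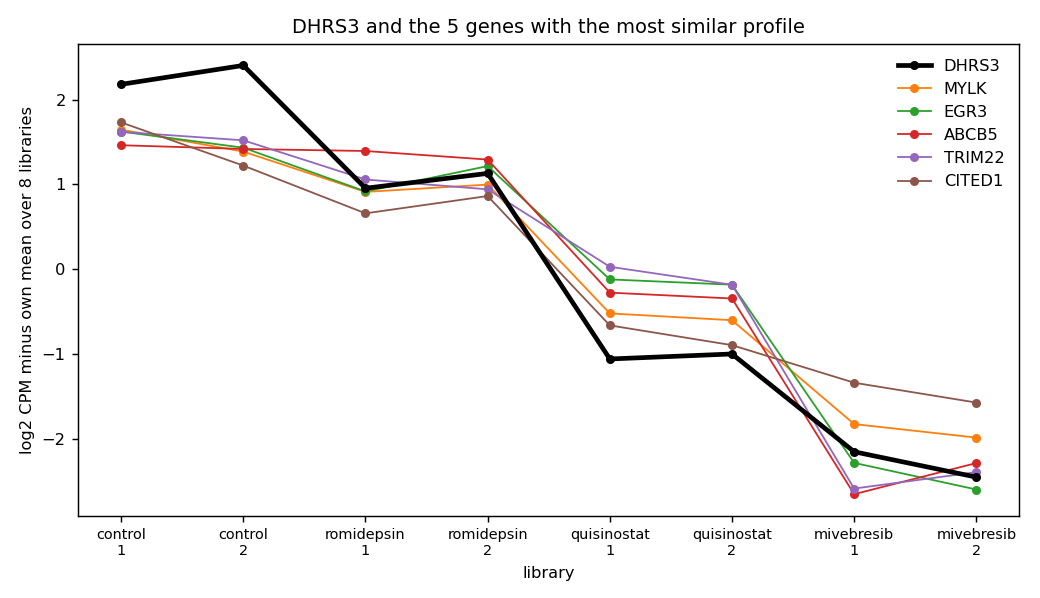
Log2 CPM minus the gene's own mean over 8 libraries (vertical axis, log2 scale) for DHRS3 (black) and the 5 genes of the smallest profile distance, in each library (horizontal axis). Lines only join the points of 1 gene and imply no order of libraries. All 6 genes are highest in the control and lowest with mivebresib, and DHRS3 has the highest control values and, at -1.059 and -1.0, the lowest quisinostat values.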

How the data were processed

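RNA was sequenced from 8 libraries of MP38 cells. Per the labels and methods, the authors analysed the reads with BioJupies and deposited raw counts per gene symbol, without normalization. The submitters' processing notes name hg 38. The aligner, the annotation and whether counting used strand are not given in the sources used here. The authors' log CPM and quantile-normalized tables were not used.

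Groups came from the sample labels. Tests on the counts used the quasi-likelihood method of edgeR 4.0.16 (R 4.3.3) after TMM scaling and a low-count filter (filterByExpr, minimum count 10, 1 model of all 8 libraries with 4 residual degrees of freedom, Benjamini-Hochberg adjustment over 15085 genes). A gene was called at an adjusted p below 0.05. The study's log2 FC limit of 1.5 is named where used. The standard error is the log2 FC divided by the root of the F statistic. Log2 CPM used a prior count of 2. Where no library of a group had over 3 counts, a gene was given by a ratio of summed counts with an exact binomial interval, which covers counting error only. With 28483235 to 29359024 counts per library, the number of libraries limits precision more than depth does for genes with many counts. For genes with few counts, such as RARB, CRABP1, STRA6, CYP26A1 and LRAT, counting error limits it too. Positions, exon lengths and overlaps came from GENCODE 29, sequences from RefSeq.

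The 9 genes and the wider list were chosen with earlier results of these data known. The text names the 9 genes, up to 2 called genes per role and drug with the smallest adjusted p, genes that make up counts of 5 or fewer, the 5 genes most like DHRS3 and its neighbours in the quisinostat order. Further genes that complete a count or a trend, such as RDH10, LIPE and THRB, were added after their values were seen. Some genes of the wider list are counted but not reported here. Alternatives tried were limma-voom (limma 3.58.1), DESeq2 1.42.0, upper-quartile factors, library size alone, no filter, a mean of at least 1 CPM, only the 4 libraries of a comparison, a replicate block and each library left out. The fits with edgeR, limma-voom and DESeq2 were tested on simulated counts for mivebresib against control, and the search for repeats on built sequences. Tables and figures used Python 3.11.15, pandas 2.3.3, scipy 1.17.1 and matplotlib 3.10.9.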

Additional observations from a re-analysis of the deposited data

How the results depend on the processing

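The main limits are 2 wells per group of 1 line, 1 dose and time per drug, and a control group whose libraries differed most. The tested changes of DHRS3 kept direction and call under every alternative. Those against the control still rest on the control libraries that chose the gene. Leaving out 1 library, which leaves a lone sample assumed to vary like the other groups, gave a log2 FC of -1.35 to -1.14 with romidepsin and -4.82 to -4.50 with mivebresib, and -3.56 to -3.25 between them. Without a test, it gave -3.46 to -3.24 for quisinostat against control, -2.18 to -2.01 against romidepsin and -1.47 to -1.15 for mivebresib against quisinostat. With library size alone DHRS3 was at -3.15 with quisinostat and at -1.48 in mivebresib against quisinostat.

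Counts of the 9 genes called moved as follows. For romidepsin against control, only the 4 libraries left 1 lower gene. Lower calls over all genes went from 2377 of 15085 in the main fit to 1116 of 14127. For mivebresib against control, the count of higher genes was 0 with no filter, 0 with only the 4 libraries and 2 with upper-quartile factors. Higher calls over all genes were 3342 of 15085 in the main fit and 3716 with upper-quartile factors. They were 3042 of 22876 with no filter and 2484 of 14014 with only the 4 libraries. For quisinostat against romidepsin, higher genes numbered 1 with DESeq2, 4 with library size alone and 4 with upper-quartile factors. Lower genes numbered 0 with library size alone. Of all 15085 genes, 3167 were called higher in the main fit and 2593, 4307 and 3517 in these settings. Lower calls over all genes went from 2200 to 1298 with library size alone. For mivebresib against quisinostat, library size alone left 0 higher, where higher calls over all genes went from 3954 to 2554. Leaving out 1 library gave 2 to 4 higher and 1 to 3 lower with romidepsin, 0 to 1 and 4 to 4 with mivebresib, 0 to 4 and 0 to 1 for quisinostat against romidepsin, and 0 to 1 and 4 to 5 for mivebresib against quisinostat.

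On the wider list, only the 4 libraries left 3 lower genes with romidepsin and 7 with quisinostat, where library size alone left 5 and upper-quartile factors 6. Lower calls over all genes moved too. With romidepsin they went from 2377 of 15085 in the main fit to 1116 of 14127 with only the 4 libraries. With quisinostat they went from 3793 of 15085 to 2896 of 14773 with only the 4 libraries. Library size alone gave 2144 with quisinostat and upper-quartile factors 2673. Leaving out 1 library gave 6 (without romidepsin replicate 2) to 16 (without control replicate 2) higher and 3 (without romidepsin replicate 1) to 9 lower genes with romidepsin, 15 to 19 and 6 (without either quisinostat library) to 13 with quisinostat, and 5 to 8 and 9 (without mivebresib replicate 2) to 16 with mivebresib. The sign turned for CRABP1 in quisinostat against romidepsin (-0.00 with only the 4 libraries, -0.38 to 0.61 without a library), for CRABP1 in mivebresib against romidepsin (-0.77 to 0.23) and for STRA6 with romidepsin (-0.17 to 0.33), none of which was called. Calls over all genes moved as well when 1 library was left out, and the cause of all these shifts was not tested.

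The deviations of same-numbered libraries correlated at -0.162 to 0.158, so no strong shared effect of the replicate number was seen. Whether the libraries were paired is not given in the labels, and these correlations cannot decide it. A replicate block gave DHRS3 -1.25 with romidepsin and -4.65 with mivebresib, left the counts of called genes above as they were, and lost the call of LRAT with quisinostat (adjusted p = 0.0563), while NCOA1, which had missed the threshold there, gained one.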
